A study of Laccaria bicolor with 37 samples.

Results

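The 17 gene models described here, of 23130 in the tables of *Laccaria bicolor* S238N, had lower read levels in root-associated mycelium than in both other kinds of mycelium at 21 days post-inoculation (dpi), the latest day sampled. They were chosen from measured values. Counts were scaled to counts per 1e6 counted reads of the library (CPM), and 0.5 was added to each group mean. A gene model was kept where the ratios of ectomycorrhizal (EcM) to free-living (FLM) and of EcM to extramatrical (ExM) mycelium were both at most 0.5 at 21 dpi, EcM/FLM was above 0.67 at 14 dpi and below 2 at 3 and 14 dpi, and the FLM mean at 21 dpi was at least 5 CPM. All 17 passed the low-count filter, as did 15533 gene models in all. Differences that these conditions set are given as descriptions, and members were tested only in comparisons of libraries that the conditions did not use.

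*L. bicolor* is a basidiomycete that forms ectomycorrhizas with trees. Its hyphae wrap the fine roots in a mantle and grow between the outer root cells as a Hartig net, where sugars of the host are exchanged for mineral nutrients, while extramatrical hyphae explore the medium. Of the 17 gene models, 7 carried an annotation. One codes for pyrroline-5-carboxylate reductase, the enzyme of the closing step of proline synthesis (291005). Another codes for imidazoleglycerol-phosphate dehydratase, a step of histidine synthesis that fungi, plants and bacteria have and animals lack (659780). The others were an enoyl-CoA hydratase, an enzyme type that adds water to unsaturated acyl-CoA during fatty acid breakdown (305939), a subunit annotated to ubiquinol-cytochrome c reductase, the respiratory complex III of mitochondria (671968), a metalloexopeptidase, which trims amino acids off the ends of peptides (452695), and 2 gene models marked as specific to *L. bicolor* (315621 and 326601). The remaining 10 are given by their protein number.

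The fungus was grown on agar plates with or without rooted cuttings of the poplar *Populus tremula x alba* 717-1B4. FLM came from plates without a plant and was taken at the start (0 dpi) and then at 3, 7 and 14 dpi and again at 21 dpi. EcM was fungal material up to 0.5 cm away from the roots, with the root tissue included, and ExM was mycelium of those co-cultures beyond that distance, both taken on the same days except the start. The 37 libraries made 13 groups of 3, except FLM at 0 dpi and ExM at 14 dpi with 2 each, and the labels call them biological replicates. All groups were of the same fungal isolate and the same medium. EcM material was a mixture of plant and fungus, and its extraction buffer alone was supplemented with polyethylene glycol, so this step and the kind of material cannot be told apart. In such bulk samples, fewer cells of a kind and less RNA per cell cannot be told apart.

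Totals per library of the reads counted for fungal gene models lay between 13.82 and 36.82 M (M, 1e6). At 21 dpi they lay between 14.33 and 21.36 M in EcM, 16.65 and 20.68 M in FLM and 14.82 and 22.03 M in ExM. These are not sequencing depths, because reads not counted for a fungal gene model are left out. From the genes that the study names as induced in mycorrhiza, 6 were picked, among them a hydrophobin and an aquaporin. Others that it names, such as MiSSP7, were not part of this look at the labels. They were higher in every EcM library than in every FLM and ExM library at 14 and at 21 dpi. The study drew on the same libraries, so this is no independent check of the labels. An Rh-like ammonium transporter among the 6 was near the floor at 21 dpi, at means of 0.34 CPM in EcM, 0.117 CPM in ExM and 0.0901 CPM in FLM. The members had between 10 and 1065 reads in a 21 dpi library, and counting error weighs more on those with few reads.

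At 21 dpi the EcM libraries lay below all FLM and ExM libraries for each of the 17, which the conditions largely fixed, and 20.5% of the gene models tested also had no overlap in this direction. EcM/FLM ran from 0.354 to 0.498 with a median of 0.459, and EcM/ExM from 0.395 to 0.492 with a median of 0.46. FLM and ExM were close to each other. Their ratio ExM/FLM ran from 0.72 to 1.16 with a median of 0.999, and the libraries of FLM and ExM overlapped for all 17, where 11.7% of gene models had every ExM library lower and 13.9% every ExM library higher. ExM/FLM is the quotient of EcM/FLM and EcM/ExM, which the conditions both limited. The closeness is therefore a description that the choice of members helped to set.

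The proline gene 291005 was at 16.3, 19.5 and 24 CPM in the EcM libraries, at 43.5, 41.8 and 41.3 CPM in FLM and at 46.3, 39.4 and 40.4 CPM in ExM. Both mycelia outside the root zone thus held the same level, and the EcM libraries were all under it. The mean was 19.9 ± 3.87 CPM (SD, n = 3) in EcM against 42.2 ± 1.18 CPM in FLM, a ratio of 0.478. The complex III gene 671968 was at 15.8, 17.8 and 21.3 CPM in EcM, at 49.6, 37.3 and 37.4 CPM in FLM and at 39, 38.9 and 46.4 CPM in ExM. Its means in FLM and ExM were both 41.4 CPM, with EcM at 18.3 ± 2.77 CPM.

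The weaker annotated members showed the same arrangement at lower counts. The enoyl-CoA hydratase 305939 was at 2.76, 2.02 and 3.32 CPM in EcM, at 7.21, 6.82 and 8.17 CPM in FLM and at 7.96, 7.69 and 7.17 CPM in ExM. Its EcM/ExM of 0.395 was the lowest of the 17. The histidine gene 659780 (HIS3 in *Saccharomyces cerevisiae*) was at 4.06, 2.86 and 3.56 CPM in EcM, at 7.87, 5.66 and 9.62 CPM in FLM and at 8.91, 6.64 and 9.94 CPM in ExM. Here FLM and ExM spread widely, and the lowest FLM library stood nearest to EcM. The metalloexopeptidase gene 452695 was at 3.47 ± 0.476 CPM in EcM, 7.72 ± 0.442 CPM in FLM and 7.7 ± 0.869 CPM in ExM. The *L. bicolor*-specific 315621 and 326601 had EcM/FLM of 0.474 and 0.462.

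**Figure D1:**
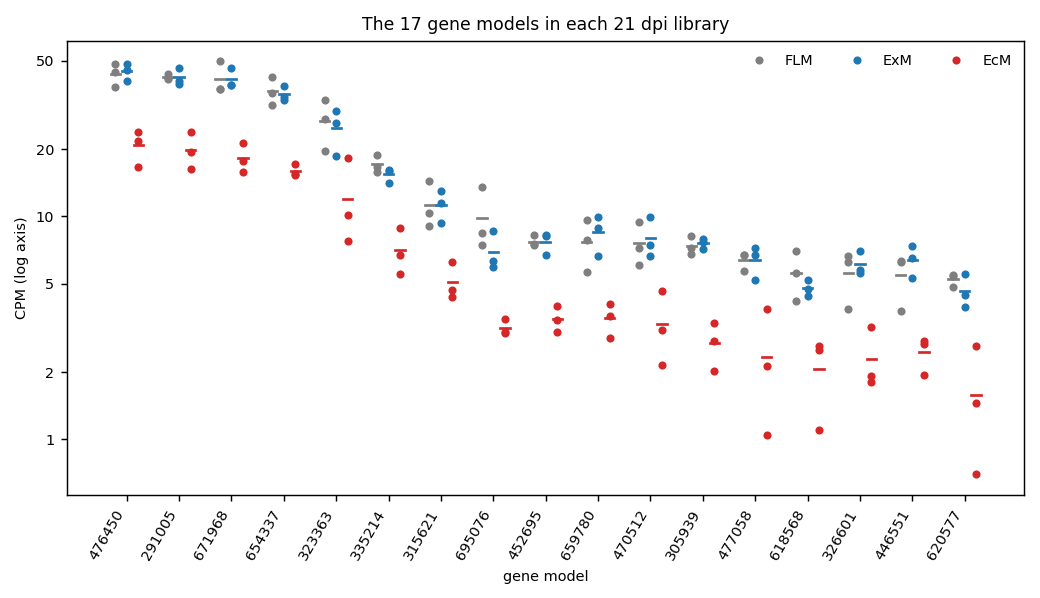
Level of each of the 17 gene models in every library at 21 dpi, in CPM on a log axis (points, libraries; short bars, group means; n = 3 per group). The 3 EcM libraries lie below the FLM and ExM libraries in all 17, while FLM and ExM overlap.

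The 2 lowest EcM/FLM ratios belonged to members without an annotation. For 695076, with the lowest ratio of 0.354, EcM was at 3.03, 3.00 and 3.46 CPM, FLM at 8.47, 7.43 and 13.6 CPM and ExM at 8.57, 5.96 and 6.31 CPM. FLM replicate 3 stood apart from the other FLM libraries, and EcM/ExM was 0.492, close to the limit. For 620577, with a ratio of 0.365, EcM was at 1.45, 0.698 and 2.62 CPM, FLM at 5.47, 5.38 and 4.84 CPM and ExM at 5.53, 3.92 and 4.45 CPM. Its EcM libraries differed among themselves by more than its FLM libraries, and replicate 2 rested on 10 reads. The enoyl-CoA hydratase 305939 followed with 0.405, and then 477058, 618568 and 335214 with 0.412, 0.424 and 0.428.

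Among the stronger unannotated members, 476450 was at 16.7, 24 and 21.8 CPM in EcM, at 44.3, 37.9 and 48.1 CPM in FLM and at 40.5, 45.3 and 48.3 CPM in ExM. Gene model 654337 was at 15.4, 15.5 and 17.2 CPM in EcM, at 42.2, 31.7 and 35.7 CPM in FLM and at 34.5, 38.6 and 33.2 CPM in ExM. In both, all EcM libraries lay well under the rest, and those of 654337 lay close together. Gene model 323363 was the member with the narrowest gap, with EcM at 10.1, 7.74 and 18.2 CPM, FLM at 33.2, 19.6 and 27.4 CPM and ExM at 18.7, 26.2 and 29.8 CPM. Its EcM replicate 3 nearly reached the lowest ExM library.

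Per kilobase of transcript, the members differed in level by more than an order of magnitude in FLM at 21 dpi. The mean count per kilobase and per 1e6 reads (RPKM) was 170 for the complex III gene 671968, 68 for 476450 and 43.5 for the proline gene 291005, and the lowest was 4.27 for 620577, with a median of 9.9 over the 17. The transcripts were 243 to 1269 bases long with a median of 948 bases, against 1182 bases over all gene models tested. The complex III transcript of 243 bases was the shortest.

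Membership depended on how libraries were scaled. Over the 10665 gene models with at least 5 CPM in FLM at 21 dpi, the median log2 EcM/FLM was -0.1 with library totals, 0.04 with TMM factors, which were 0.86 to 0.928 in the EcM libraries at 21 dpi, and 0.05 with median-of-ratios factors. The members' median EcM/FLM moved with it, from 0.459 to 0.496 and 0.5, and their median EcM/ExM from 0.46 to 0.52 and 0.524. The direction held for every member under each scaling, and 16 of 17 kept all EcM libraries below FLM and ExM, 323363 being the exception. Both ratios stayed at or under 0.5 for 305939, 326601, 477058 and 620577 with TMM and for 305939, 477058 and 620577 with median-of-ratios factors.

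**Figure D2:**
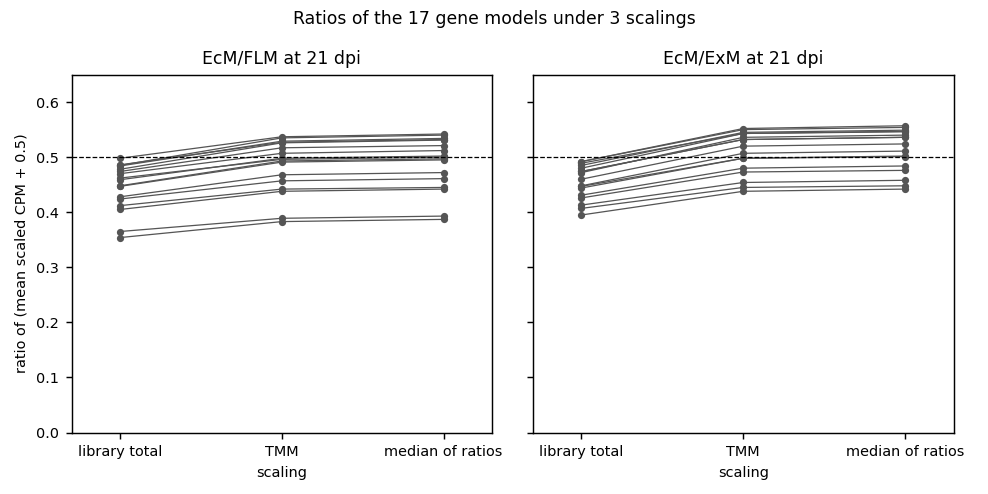
EcM/FLM (left) and EcM/ExM (right) at 21 dpi of the 17 gene models, as ratios of mean scaled CPM plus 0.5, under library totals, TMM factors and median-of-ratios factors (dashed line, the limit of 0.5). The whole set shifts upward by a like amount, and 4 and then 3 gene models remain at or under the limit in both panels.

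The limits cut through a continuous range. The members just inside the limit on the larger of both ratios were 446551 (0.498) and 323363 (0.492), and just outside were 483799 (0.502) and 632336 (0.504). Another 29 gene models that met the remaining conditions had a larger ratio above 0.5 and up to 0.55. One library had the most weight. EcM replicate 3 was the highest EcM library at 21 dpi in 13 of 17 members and the lowest in 0, and without it 49 gene models met the conditions, all 17 members among them. FLM replicate 2 was the lowest FLM library in 15 of 17, and without it 24 gene models met them.

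In total, 146 gene models met the conditions for 21 dpi alone, of which 126 were already at EcM/FLM of 0.67 or less at 14 dpi and 3 had other courses. The members were not free of a difference at 14 dpi. With library totals, EcM/FLM was below 1 in all 17 at 14 dpi, with a median of 0.751, and under 0.75 in 8. The median over gene models with at least 5 CPM in FLM at 21 dpi was 0.915. With TMM factors, 477058 and 659780 were at 1.01 and 1.03, and with median-of-ratios factors at 1.02 and 1.03. Every EcM library lay below every FLM library in 13 of 17, where 39.4% of all gene models tested showed this. The nearest to the limit of 0.67 were 335214 (0.67) and 446551 (0.675) inside and 323073 (0.664) and 487962 (0.661) outside, and 14 gene models that met the rest lay above 0.6 and up to 0.67. The ratios nearest to 1 at 14 dpi were those of the histidine gene 659780 and of 477058, at 0.93 and 0.917. Their EcM and FLM libraries overlapped, as did those of 326601 and 470512.

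EcM and ExM were not compared by the conditions at 14 dpi, but the EcM libraries of that day were, and likewise the FLM libraries, so both comparisons with ExM at 14 dpi are given as descriptions. The median log2 difference between EcM and ExM was -0.27 (range -0.7 to 0.47), against -0.02 over all gene models, and 14 of 17 were below 0. All EcM libraries were below both ExM libraries in 10, beside 36.8% of gene models. The complex III gene was at 14.4, 18.3 and 18.7 CPM in EcM and 23.5 and 34.7 CPM in ExM, a log2 difference of -0.67 ± 0.21 (SE). Between ExM and FLM the median log2 difference at 14 dpi was -0.11, with a range from -0.47 to 0.41.

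**Figure D3:**
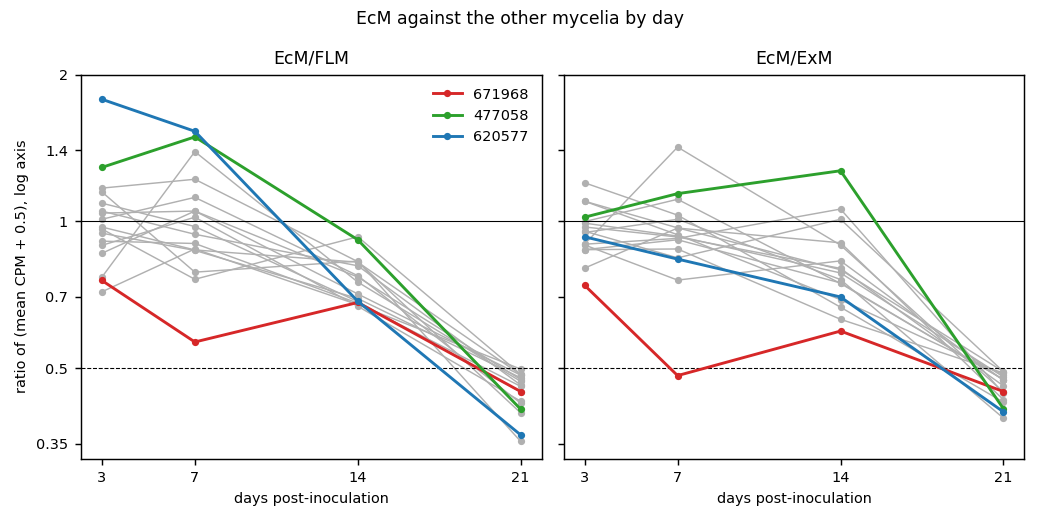
EcM/FLM (left) and EcM/ExM (right) of the 17 gene models at 3, 7, 14 and 21 dpi, as ratios of mean CPM plus 0.5 on a log axis (solid line, 1; dashed line, 0.5). The median EcM/FLM goes from 0.974 and 0.976 to 0.751 and 0.459, while 671968 is already low at 7 dpi and 620577 starts at 1.78.

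Between 14 and 21 dpi, levels differed on both sides of the ratio. The EcM mean was lower at 21 than at 14 dpi in 15 members, the FLM mean higher in 15 and the ExM mean higher in 16, and all of these held in 13. The median log2 change was -0.35 in EcM, 0.3 in FLM and 0.43 in ExM. For the 126 gene models that were already low at 14 dpi the same medians were -0.4, -0.12 and -0.09, and for all with at least 5 CPM in FLM they were -0.11, -0.1 and -0.03. These groups entered the choice of members, so the values are a description. The drop of the EcM mean was larger than the gain of the FLM mean in 9 members, and the reverse held in 8. These values are for library totals. In the edgeR fit with TMM factors the members' median log2 changes were -0.29 in EcM, 0.45 in FLM and 0.48 in ExM. Which side moved more thus depended on the scaling.

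Single members showed each kind of course. The histidine gene 659780 had a lower EcM level and an even FLM level, with 5.58, 9.48 and 6.54 CPM in EcM at 14 dpi against 4.06, 2.86 and 3.56 CPM at 21 dpi, while the FLM mean was 7.78 ± 1.49 and 7.72 ± 1.99 CPM. The opposite was seen in the complex III gene 671968, where EcM stayed at 17.1 ± 2.35 and 18.3 ± 2.77 CPM and FLM went from 25.2, 22.5 and 28.4 CPM to 49.6, 37.3 and 37.4 CPM without overlap. In 618568, EcM was at 1.84 ± 0.541 and 2.08 ± 0.847 CPM and FLM at 2.52 ± 0.213 and 5.58 ± 1.43 CPM. In both, EcM libraries of the 2 days overlapped, and every FLM library of 21 dpi was above those of 14 dpi.

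Over all members, the EcM libraries of 21 dpi were all below those of 14 dpi in 7, beside 28.4% of gene models. The FLM libraries of 21 dpi were all above those of 14 dpi in 5, beside 14.5%. For ExM they were all above in 10 and all below in 1, beside 21.5% and 29.3%, with 2 libraries at 14 dpi. EcM was all below and ExM all above in 3 members, beside 4.02%. The member whose group mean was lower at 21 than at 14 dpi in every mycelium was 695076, though its FLM libraries of the 2 days overlapped. Its group means at 14 and 21 dpi were 12.3 and 9.85 CPM in FLM, 9.98 and 6.95 CPM in ExM, and 10.1 and 3.16 CPM in EcM. FLM was highest at 21 dpi in 12 of the 17 members over its whole course, and EcM at 21 dpi was the lowest of all 13 group means in 11. The conditions favoured a high FLM and a low EcM level at 21 dpi, so both counts are a description that the choice of members helped to set. No share over all gene models is given for them.

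**Figure D4:**
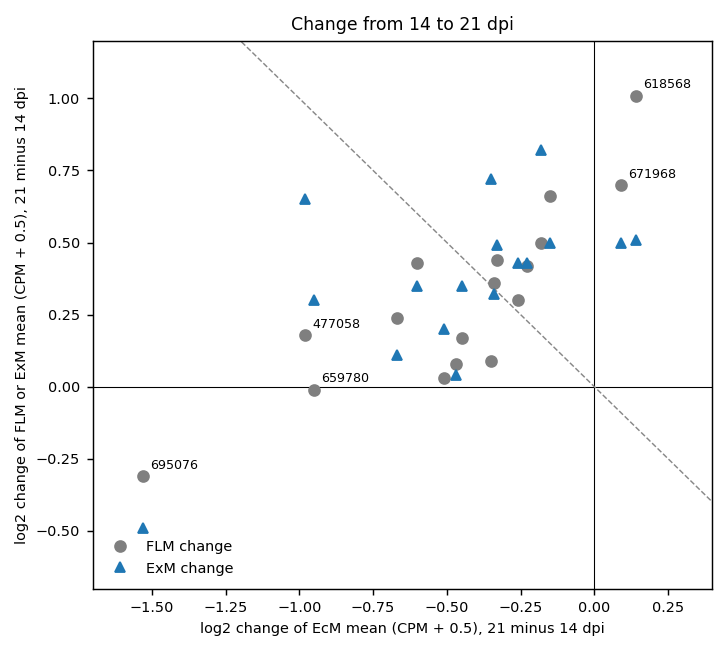
Log2 change of the group mean (CPM plus 0.5) from 14 to 21 dpi in EcM (horizontal axis) and in FLM (circles) or ExM (triangles, vertical axis) for the 17 gene models. Points above the dashed line have a larger rise outside the root zone than decline in EcM, as the circles of 618568 and 671968 do. Gene model 695076 lies at the lower left, with lower means at 21 dpi in all 3 mycelia.

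At 7 dpi none of the groups had entered the choice of members. EcM/FLM ran from 0.566 to 1.53 with a median of 0.976, beside 0.918 over all gene models with at least 5 CPM in FLM at 21 dpi. The edgeR test of EcM against FLM called 0 of 17, beside 3.92% of gene models called, and DESeq2 called 0. An unadjusted p under 0.05 was found for 3 members. No share of all gene models at that unadjusted limit is given for this or the other comparisons, so such counts are a description. The median log2 difference was 0.1 (range -0.7 to 0.83). Without EcM replicate 2, 2 members were called higher, 620577 and 477058. For ExM against FLM, edgeR called 0 (1 at an unadjusted p under 0.05, background 2.02%) with a median of 0.19, and 14 of 17 members were above 0. DESeq2 called 1, which was 620577, and so did edgeR without ExM replicate 1.

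The complex III gene was the exception at 7 dpi. It was at 24.6, 19.1 and 17.4 CPM in EcM, at 36.2, 40.9 and 51.0 CPM in ExM and at 42.4, 33.4 and 33.2 CPM in FLM. All EcM libraries lay below all others, so the lower level near the root was present well before 21 dpi in this gene model. Against ExM it fell by 1.05 on the log2 scale (SE 0.19, edgeR adjusted p = 0.0028) and was the 1 member called, where 0.0129% of gene models were called lower. The log2 difference from FLM was -0.7 ± 0.18 (SE, adjusted p = 0.011), under the size limit. The call against ExM was lost when EcM replicate 2, EcM replicate 3 or ExM replicate 3 was left out, at log2 differences of -1.0, -0.93 and -0.89, and in a fit of the compared libraries alone (adjusted p = 0.14). The direction held in each of these. At 3 dpi its EcM/FLM was 0.757, with overlapping libraries. Its EcM/ExM was 0.74 on that day, and every EcM library was already below every ExM library, beside 5.45% of gene models.

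Other members leaned the other way early on. Gene model 620577 was at 9.18, 2.98 and 5.08 CPM in EcM, at 4.18, 7.42 and 9.28 CPM in ExM and at 3.70, 3.37 and 3.67 CPM in FLM at 7 dpi. All ExM libraries were above FLM, and the log2 difference of 1.09 ± 0.34 (SE) had an edgeR adjusted p of 0.062. The same order of ExM over FLM without overlap was found at 3 dpi. EcM replicate 1 at 7 dpi was the high library here, and it was so also for 477058 with 15.2, 4.30 and 5.50 CPM and for the enoyl-CoA hydratase 305939 with 13.1, 3.58 and 4.70 CPM. For 305939 the remaining EcM libraries lay below all FLM libraries, which were at 5.48, 5.5 and 6.27 CPM. The 3 members were at EcM/FLM of 0.365, 0.412 and 0.405 at 21 dpi, among the lowest. Not every member followed this order. EcM/FLM of 470512 was 1.39 at 7 dpi and 0.47 at 21 dpi, and that of 695076 was 0.787 and 0.354. Over the 17, EcM replicate 1 was the highest EcM library of 7 dpi in 8 and the lowest in 5.

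**Figure D5:**
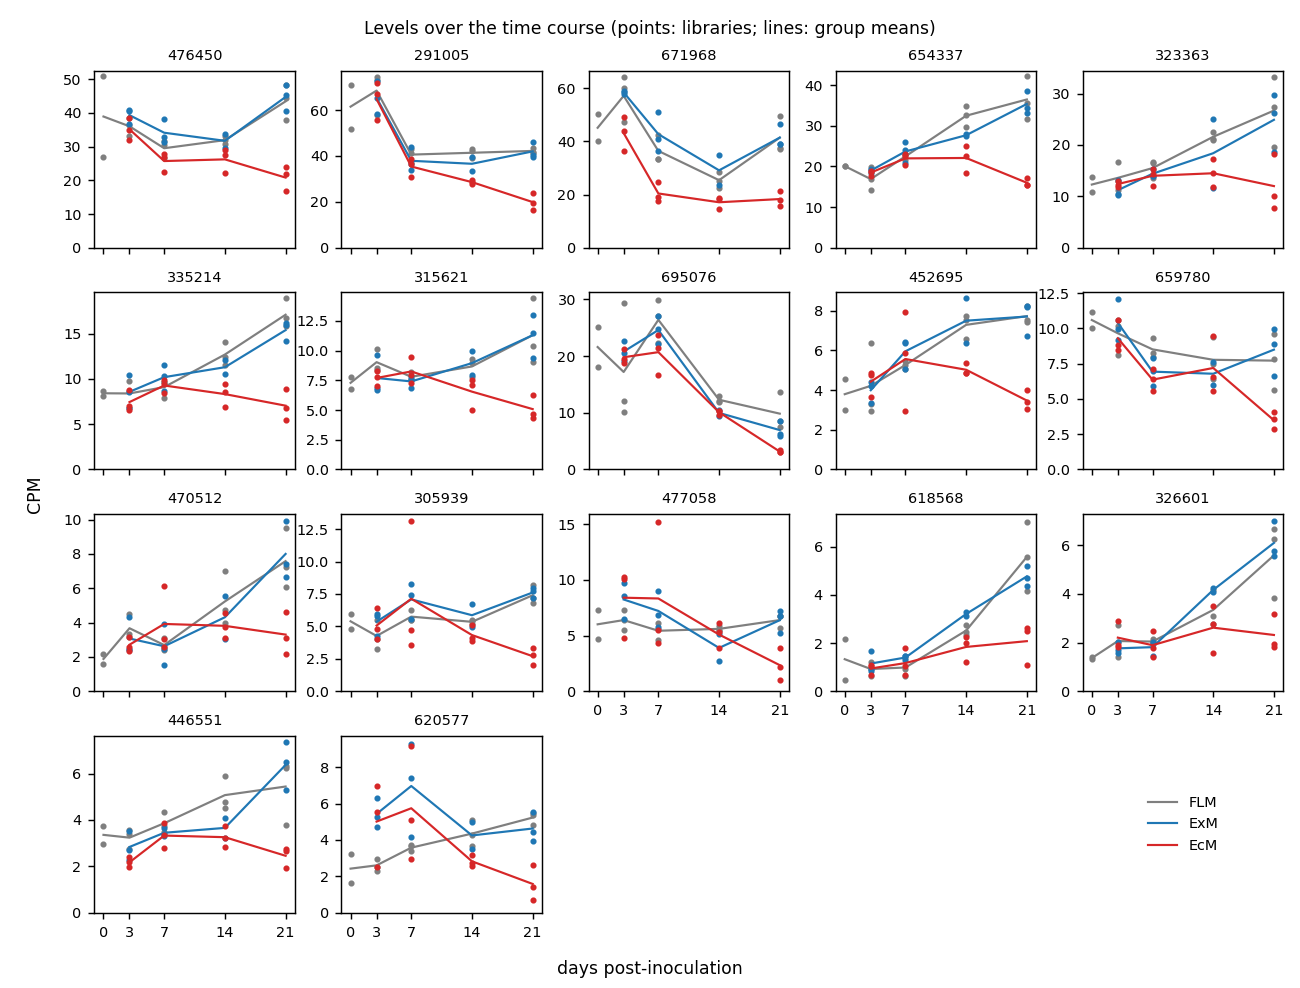
CPM of the 17 gene models over the time course in FLM, ExM and EcM (points, libraries; lines, group means; vertical axes start at 0 and differ between panels). In most panels the 3 lines run together up to 7 dpi and EcM parts from the others at 14 and 21 dpi. In 671968 EcM is separate from both others from 7 dpi on, and in 695076 all 3 lines go down after 7 dpi.

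The ExM course up to 14 dpi was also independent of the choice. From 7 to 14 dpi edgeR called 2 members higher and 1 lower, beside 1.39% and 2.66% of gene models. The *L. bicolor*-specific 326601 rose from 1.97, 1.45 and 2.01 CPM to 4.24 and 4.09 CPM, by 1.1 ± 0.29 on the log2 scale (adjusted p = 0.0067). Gene model 618568 rose from 1.46, 1.45 and 1.29 CPM to 3.12 and 3.29 CPM, by 1.12 ± 0.38 (adjusted p = 0.037). In both the later libraries lay clear of the earlier ones. The unannotated 695076 went the other way, from 27, 24.7 and 22.2 CPM to 10.5 and 9.42 CPM, and fell by 1.38 (SE 0.29, adjusted p = 0.0013).

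The count of 3 called in ExM became 1 without ExM replicate 2 of 7 dpi and 1 without ExM replicate 1 of 14 dpi, and the call of 618568 was lost under each omission, with adjusted p of 0.068 to 0.17 at log2 differences of 1.05 to 1.14, about that of the full fit. Without ExM replicate 1 of 7 dpi, 620577 was called lower at 14 dpi (log2 difference -1.11, edgeR adjusted p = 0.048). The calls were not of 1 direction and the median over the 17 was 0.0. From 3 to 7 dpi edgeR and DESeq2 called 0 members in ExM, beside 3.14% of all tested. An unadjusted p under 0.05 was found for 5, with no share over all gene models to set beside it. The proline gene 291005 was at 72.6, 58.3 and 65.1 CPM at 3 dpi and at 43.7, 33.8 and 36.3 CPM at 7 dpi, a log2 difference of -0.79 ± 0.13 (adjusted p = 4.3e-05) that was under the size limit.

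The plates without a plant gave a similar early picture. From 0 to 7 dpi edgeR and DESeq2 called 0 members in FLM, beside 0.837% of all tested. An unadjusted p under 0.05 was found for 2, again with no share over all gene models. The proline gene was at 71.1 and 51.8 CPM at 0 dpi and at 41.4, 43.2 and 37.3 CPM at 7 dpi, a log2 difference of -0.65 ± 0.14 (edgeR adjusted p = 0.0049). Its libraries of both days did not overlap, with no plant present. It then held between 7 and 21 dpi in FLM, at means of 40.6, 41.4 and 42.2 CPM, while EcM went through 35.4, 28.6 and 19.9 CPM.

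Other gene models with the annotations of the members were looked up in the study's tables, which annotate 3315 gene models, and are described by EcM/FLM at 21 dpi without the members. The ratios of single gene models are for library totals, where the median EcM/FLM was 0.931 over gene models with at least 5 CPM in FLM at 21 dpi. The median log2 differences are from the edgeR fit with TMM factors. There the median between EcM and FLM at 21 dpi was -0.01 over all gene models tested. For ubiquinol-cytochrome c reductase, 625063 was at EcM/FLM of 1.447, 454162 at 1.211 and 313187 at 0.934, and 621619 was hardly read, at 0.288 CPM or less in each mean. For histidine synthesis, 481710 was at 1.053 and 680049 at 0.631. The other gene model with proline in its annotation, 188701, was at 1.166. It is a pyrroline-5-carboxylate dehydrogenase, a different enzyme from the reductase, and does not show how other steps of proline synthesis behaved. Of the enoyl-CoA hydratases and gene models of beta-oxidation, 245955 was at 0.58, 312422 at 0.557 and 292320 at 0.913, with a median log2 difference of -0.66. Both other metalloexopeptidases were near 1, at 0.925 and 1.107. Of 225 further gene models marked as specific to *L. bicolor*, edgeR called 11 lower and 2 higher in EcM than in FLM at 21 dpi, beside 3.52% and 2.12% of all gene models tested, and the median was -0.19.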

How the data were processed

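The 37 libraries were poly(A)-selected stranded RNA-seq of *L. bicolor*, grouped by mycelium and day as labelled. Per the study's methods, the authors aligned trimmed read pairs with CLC Genomics Workbench to the *L. bicolor* v2 transcripts, allowing up to 10 hits. The deposited tables hold raw read counts, which were used for all tests, and RPKM as computed by the authors, used for levels per length and for transcript lengths. Unique and shared reads are not told apart in the header, so near-identical copies are uncertain, and poplar reads that fit a fungal transcript would count as fungal.

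Counts were tested with edgeR 4.0.16 (R 4.3.3, limma 3.58.1), with filterByExpr (minimum count 10, total 15), TMM factors, 1 coefficient per group over all libraries and a two-sided quasi-likelihood F-test with Benjamini-Hochberg adjustment over 15533 gene models. Tests of ExM against EcM and FLM at 14 dpi were planned, but share libraries with the conditions and are given as descriptions. A call needed an adjusted p under 0.05 and a log2 change of at least 1. The common biological coefficient of variation was 0.142. On simulated data for EcM against FLM at 7 dpi, 97 of 100 changes of 1.5 and 100 of 100 changes of 3 on the log2 scale were recovered, with 3 false calls among 15331 gene models. For EcM against ExM at 14 dpi, 91 of 100 changes of 1.5 and 100 of 100 changes of 3 were recovered, with 0 false calls. Changes near the limit of 1 were not simulated, so the recovery of differences of that size is not known. Alternatives were median-of-ratios factors, DESeq2 1.42.0, no filter, only the compared libraries, a replicate block, 1 added to the mean CPM, group medians and leaving out each library.

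The members, the gene lists and the comparisons were chosen with earlier results of these data known. Members were named by their EcM/FLM ratio, FLM level, annotation, calls and nearness to the limits, and the lists of related genes were chosen after the members' annotations were seen. Annotations are those of the study's tables. The RefSeq table (V1.0) matched 6 of 17 members and 6580 gene models by locus tag and gave no symbol or chromosome for the members, so neighbours were not determined.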

Additional observations from a re-analysis of the deposited data

Results flagged for a closer look

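In 3 gene models the libraries moved in opposite directions from 14 to 21 dpi, with every EcM library of 21 dpi below every EcM library of 14 dpi and every ExM library of 21 dpi above every ExM library of 14 dpi, beside 4.02% of all gene models tested. The log2 change of the EcM mean was -0.6 for the enoyl-CoA hydratase 305939, -0.35 for 446551 and -0.45 for 654337, and that of the ExM mean was 0.35, 0.72 and 0.35. In 305939 the FLM libraries of 21 dpi were also all above those of 14 dpi. The difference between these changes was not tested, because the 21 dpi libraries had chosen the members, and ExM at 14 dpi had 2 libraries.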

How the results depend on the processing

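The number of gene models meeting the conditions was 17 with library totals, 6 with TMM factors (4 of the 17 among them), 5 with median-of-ratios factors (3 among them), 33 with group medians (14 among them) and 13 with 1 in place of 0.5 added (9 among them). With each library left out in turn it ran from 13 to 49, the highest without EcM replicate 3 of 21 dpi. The members called at 7 dpi ran from 0 to 2 for EcM against FLM (2 without EcM replicate 2), from 0 to 1 for ExM against FLM (1 without ExM replicate 1 and 1 with DESeq2) and from 0 to 1 for EcM against ExM (0 without EcM replicate 2, EcM replicate 3 or ExM replicate 3, and 0 in a fit of the compared libraries). For ExM at 14 against 7 dpi they ran from 1 to 3 (1 without ExM replicate 2 of 7 dpi or replicate 1 of 14 dpi). Of 84 alternative counts of calls 75 were unchanged or within 1.5 times, and of 41 alternative values for single called members 30 kept the call and 0 turned direction. Most of the unchanged counts were 0 in comparisons with 0 calls in the main fit, among them both with ExM at 14 dpi. They say little about how stable a call is. For EcM against ExM at 7 dpi, 7 alternatives kept the 1 call and 4 lost it. Leaving out a library of ExM at 14 dpi left 1 sample there, assumed to vary like the other groups. Deviations of samples with the same replicate number had correlations of -0.448 to 0.351, without a common sign over the comparisons. All were positive for ExM at 7 against 3 dpi (0.0931 to 0.351) and negative for EcM against ExM at 7 dpi (-0.448 to -0.142). The labels name no pairing, so the number was not taken as one, and whether EcM and ExM of the same number shared plates is not stated. The replicate block changed no count of calls, with 0, 0 and 1 members called at 7 dpi and 3 for ExM at 14 against 7 dpi. Members with few reads near the limits, as low as 8 in a library, are the least certain.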
